A study of Mus musculus with 5 samples.

Results

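The S100 proteins, annexins and galectins were followed in RNA of cells from the lamina propria of the mouse colon, a layer of connective tissue under the gut epithelium. Members were the genes whose symbol begins with S100, Anxa or Lgals followed by a letter or number of the family, and 39 of the 24417 genes in the count table met that rule. They were 17 S100 genes, 12 annexins, 8 galectins, and 2 genes of other kinds that the pattern takes in, S100pbp and Lgals3bp, which encode an S100P-binding and a galectin-3-binding protein. Reporter-null cells gave 3 libraries and were positive for Thy1.1, the reporter of a Foxp3 allele in which a Thy1.1-STOP cassette flanked by loxP sites stands ahead of GFP. Treg cells gave 2 libraries and were positive for Foxp3-DTR-GFP, the diphtheria toxin receptor and GFP reporter of the other Foxp3 allele, and the series calls them wild type. Every library came from mice of the same strain, which carry both alleles, so the Treg cells carry the reporter-null allele too. The labels give no age, sex or treatment and name no animal for any library. The p-values therefore reflect only how these libraries vary, and that variation could be technical. The description of reporter-null replicate 1 joins the numbers 1 and 4.

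S100 proteins are small calcium-binding proteins that pair up and, on binding calcium, attach to partner proteins. Annexins bind membranes that expose acidic phospholipids when calcium is raised, and several are held at the membrane by an S100 partner: annexin A2 by S100A10, annexin A1 by S100A11, annexin A11 by S100A6. Galectins bind beta-galactoside sugars on glycoproteins and, once secreted, crosslink receptors on T cells and other cells. In the gut, galectin-4 and several S100 proteins are products of the epithelium, galectin-3 is made by epithelium and macrophages, and S100A8 and S100A9 are products of neutrophils and monocytes.

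Total counts were 17670420 to 22395169 per library. Foxp3 stood at 75.7, 80.7 and 81.3 CPM in reporter-null libraries and at 764 and 770.0 CPM in Treg libraries, where CPM is the count scaled to a common library size with TMM factors. Thy1 stood at 269.9, 269.3 and 300.5 CPM in reporter-null libraries and at 18.8 and 21.4 CPM in Treg libraries, so both genes followed the labels. Of 12 T cell markers 9 had a row, and their summed level was 7106 to 7563 CPM in reporter-null libraries and 7130 and 7245 CPM in Treg libraries. Within that sum, mean Cd4 was 1391 CPM in reporter-null cells and 701 CPM in Treg cells. Mean Cd2 was 455 CPM in reporter-null cells and 1174 CPM in Treg cells. In the edgeR test given below, Cd4 was called higher, Cd2 was called lower and 7 were not called. Libraries differed more in epithelial RNA. The summed level of 32 epithelial markers was 25.8, 2570 and 30.0 CPM in reporter-null replicates 1, 2 and 3, and 487 and 46.8 CPM in Treg replicates 1 and 2. In Treg replicate 2, Epcam alone made up 73.3% of that sum, and without Epcam the sums were 24.7, 2452 and 29.1 CPM in reporter-null libraries and 441.8 and 12.5 CPM in Treg libraries. Reporter-null replicate 2 and Treg replicate 1 therefore stood apart from the other 3 libraries, and results that rest on them are also given without them where a value could be computed. Their descriptions both carry the number 2, and the labels do not say that it marks an animal. The same 2 libraries had the lowest summed level of 14 dissociation and heat-shock genes, 38090 CPM in reporter-null replicate 2 and 25880 CPM in Treg replicate 1, against 59490 to 69740 CPM in the other libraries.

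Annexin A2 and the galectin-3-binding protein were higher in reporter-null cells, and S100A6 and annexin A11 were lower. These 4 genes were 15.4% of the 26 members tested, against 8.79% of all 14164 genes tested. A call means an adjusted p under 0.05 by edgeR (quasi-likelihood F test, Benjamini-Hochberg over all genes tested), and positive log2 fold changes are higher in reporter-null cells. Higher calls were 2 of 26 members, against 4.07% of all genes, and lower calls were 2 of 26, against 4.72%. At an unadjusted p under 0.05 there were 9 members, or 34.6%, against 22.6% of all genes. The libraries of the groups did not overlap for 13 members, or 50%, against 40.8% of all genes. Of these, 8 (30.8%) were higher in reporter-null cells, against 20.3% of all genes, and 5 (19.2%) were lower, against 20.5%. Tested members had a median log2 fold change of 0.175, against 0.0178 over all genes. In bulk samples, fewer cells that express a gene and less RNA per cell cannot be told apart.

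**Figure D1:**
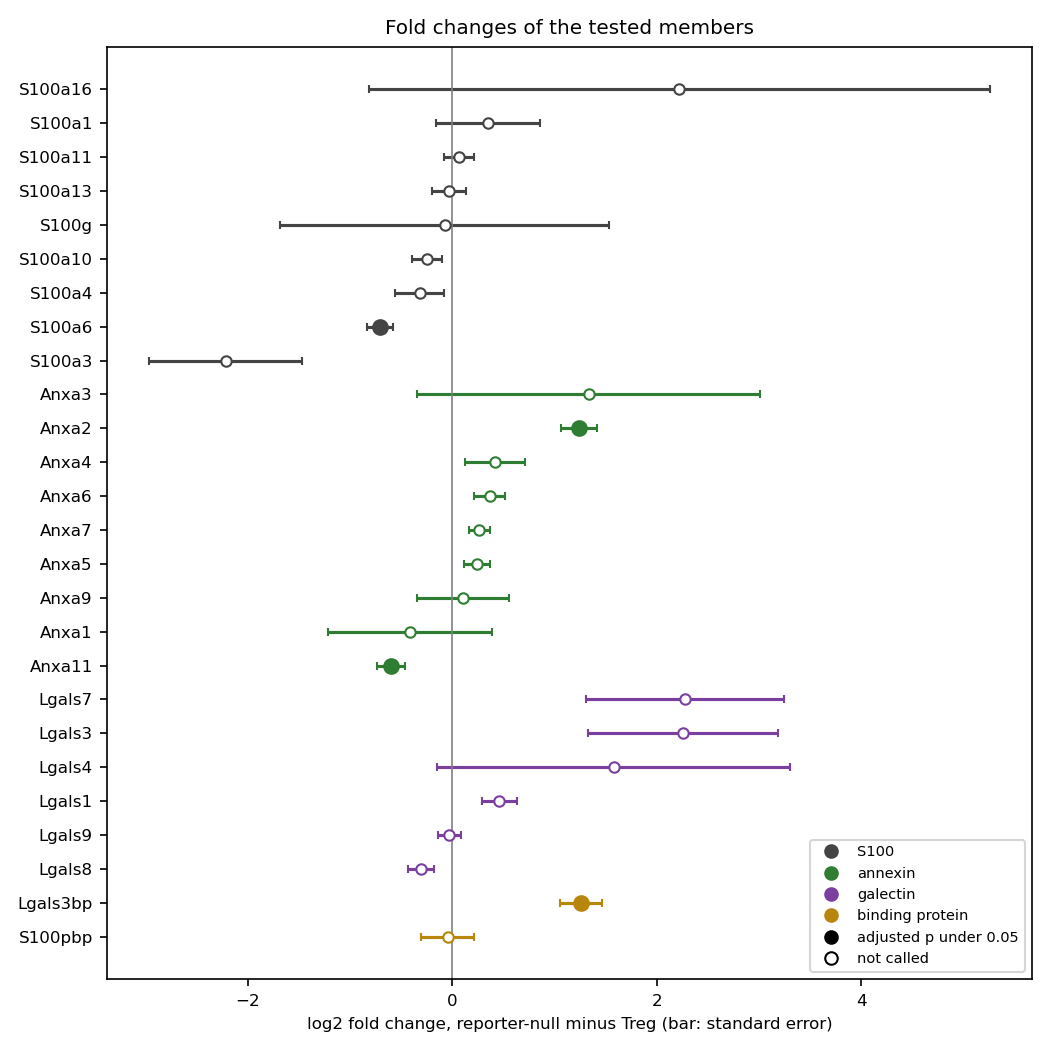
Log2 fold change (x axis, reporter-null minus Treg) of the 26 tested members, grouped by family and ordered by value within it; bars are standard errors and filled points have an adjusted p under 0.05. Of the filled points, Anxa2 (1.24) and Lgals3bp (1.26) lie right of 0, and S100a6 (-0.71) and Anxa11 (-0.59) lie left of it, while Lgals3, Lgals7 and S100a16 lie farther right than these with wide bars.

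Anxa2 encodes the annexin that organises membrane and actin at sites of exocytosis and endocytosis. It stood at 421, 407 and 333 CPM in reporter-null replicates 1, 2 and 3, and at 141 and 187 CPM in Treg replicates 1 and 2. All reporter-null libraries were above both Treg libraries. The means were 387 ± 46.9 CPM in reporter-null cells and 164 ± 32.9 CPM in Treg cells (SD, n = 3 and 2), with log2 fold change 1.24 (SE 0.175, adjusted p = 0.00775). Without reporter-null replicate 2 and Treg replicate 1, the libraries rich in epithelial RNA, the log2 fold change was 1.02. That fit has a lone Treg library, so it does not estimate how Treg libraries vary. Without Treg replicate 1 alone the call was lost (1.05, adjusted p = 0.0852).

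The partner of annexin A2 was not called. S100a10, whose product joins annexin A2 in a heterotetramer, stood at 373, 294 and 387 CPM in reporter-null libraries and at 424 and 412 CPM in Treg libraries. Every reporter-null library was below both Treg libraries, and the log2 fold change was -0.25 (SE 0.145, adjusted p = 0.383). Within a library, the ratio of Anxa2 to S100a10 was 1.13, 1.38 and 0.861 in reporter-null cells and 0.332 and 0.455 in Treg cells, with no overlap. This is a ratio of CPM between genes of unequal length, so only its difference between libraries can be read.

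Lgals3bp encodes a secreted glycoprotein that binds galectin-3 and is induced by interferon in many cells. It stood at 294, 317 and 208 CPM in reporter-null libraries and at 123 and 105 CPM in Treg libraries, with no overlap. The means were 273 ± 57.4 CPM in reporter-null cells and 114 ± 13.1 CPM in Treg cells (SD, n = 3 and 2), with log2 fold change 1.26 (SE 0.204, adjusted p = 0.0131). The call was lost without reporter-null replicate 1 (adjusted p = 0.0635), Treg replicate 1 (0.103) or Treg replicate 2 (0.127). Without the libraries rich in epithelial RNA the log2 fold change was 1.27, with 1 Treg library left. The other binding protein, S100pbp, stood between 9.11 and 12.8 CPM in every library and was not called (log2 fold change -0.05, adjusted p = 0.947).

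S100a6 encodes calcyclin, an S100 protein found in many dividing cells. It stood at 114, 99.7 and 90.5 CPM in reporter-null libraries and at 163 and 168 CPM in Treg libraries, with every reporter-null library below both Treg libraries. The means were 102 ± 12.0 CPM in reporter-null cells and 166 ± 3.88 CPM in Treg cells (SD, n = 3 and 2), and the log2 fold change was -0.71 (SE 0.130, adjusted p = 0.0205). The call was lost without Treg replicate 1 or Treg replicate 2, each of which leaves 1 Treg library. Without the libraries rich in epithelial RNA the log2 fold change was again -0.71, also with 1 Treg library left.

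Anxa11, whose product binds S100A6 and tethers RNA granules to lysosomes, stood at 102, 114 and 89.0 CPM in reporter-null libraries and at 162 and 146 CPM in Treg libraries. The groups did not overlap, and the means were 102 ± 12.6 CPM in reporter-null cells and 154 ± 11.2 CPM in Treg cells (SD, n = 3 and 2). The log2 fold change was -0.59 (SE 0.137, adjusted p = 0.0442), the called value nearest the threshold. Its adjusted p was above the threshold without reporter-null replicate 1 (0.175), reporter-null replicate 3 (0.0656), Treg replicate 1 (0.289) or Treg replicate 2 (0.153). With both libraries rich in epithelial RNA left out the log2 fold change was -0.60, with 1 Treg library left. Within a library, the ratio of Anxa11 to S100a6 was 0.895, 1.15 and 0.984 in reporter-null cells and 0.994 and 0.867 in Treg cells. The exons of Anxa11 share 113 bases with Anxa11os, and those of Anxa2 share 98 bases with Gm16144, both on the other strand, and reads of such pairs cannot be told apart without a strand setting. The ratio of Anxa11 to S100a6, both called lower, overlapped between the groups. The ratio of Anxa2 to S100a6, called in opposite directions, was 3.68, 4.08 and 3.68 in reporter-null cells and 0.864 and 1.11 in Treg cells. These ratios follow from the calls in the same libraries and are no separate result.

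**Figure D2:**
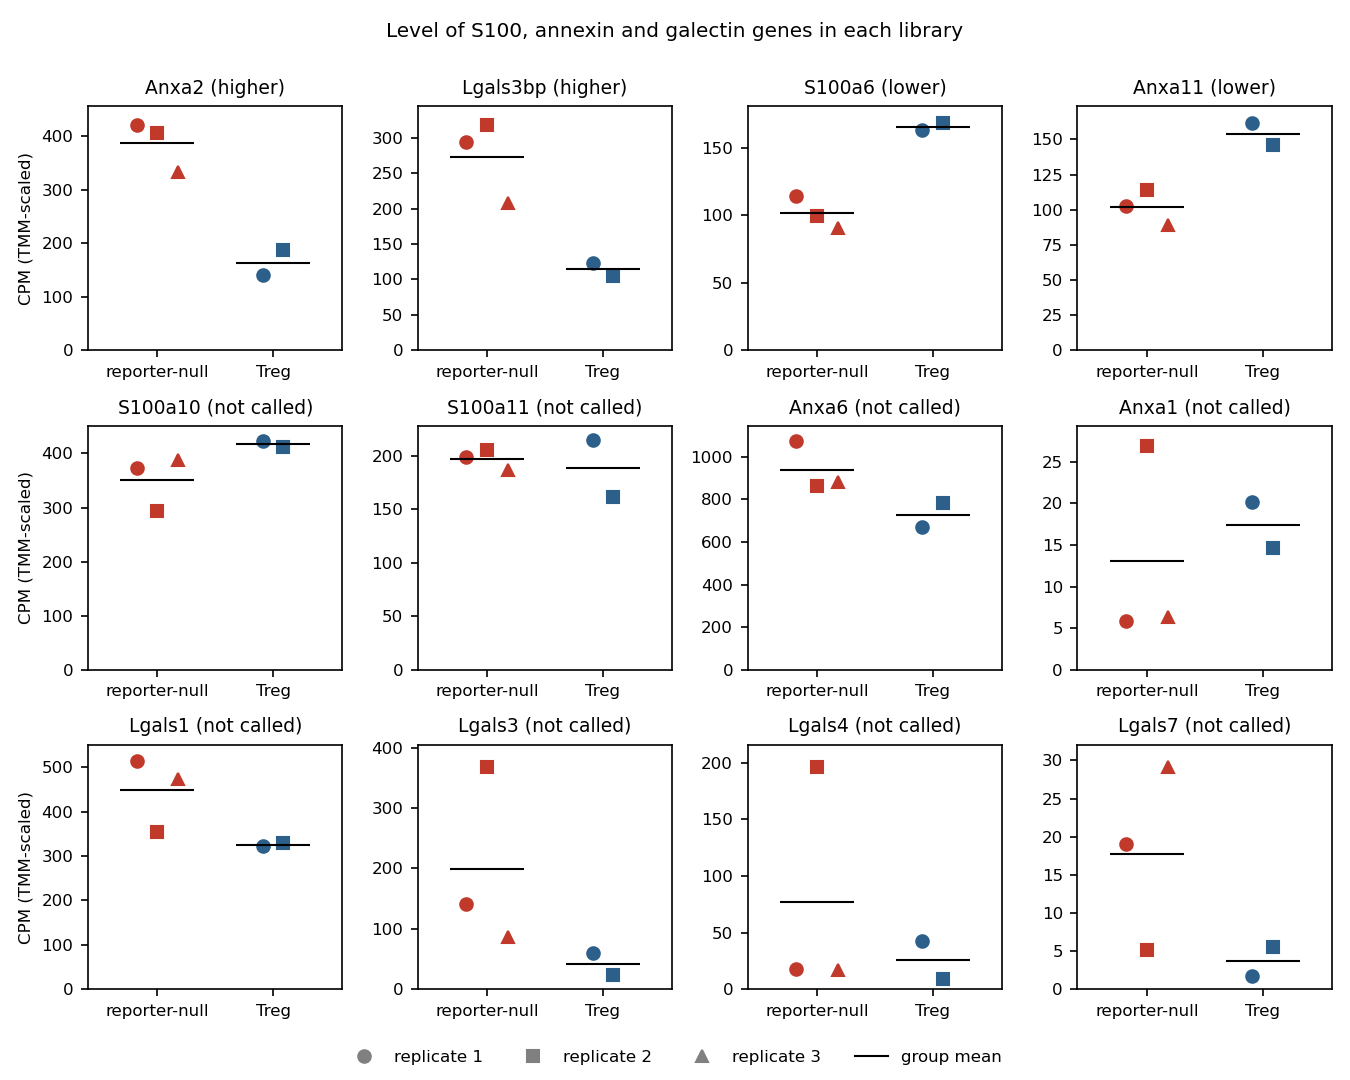
Level (y axis, TMM-scaled CPM, from 0) of 12 members in each library, reporter-null left and Treg right; symbols mark replicates and lines the group means. The 3 reporter-null libraries lie above both Treg libraries for Anxa2 and Lgals3bp and below both for S100a6 and Anxa11, while Lgals4 reaches 196 CPM in reporter-null replicate 2 and lies between 16.8 and 17.7 CPM in the other reporter-null libraries.

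The promoter windows of the 4 called genes are shown because these genes changed in opposite directions. Each window runs from 250 bases before to 50 bases after the annotated start, 5′ to 3′ on the strand of the gene, from RefSeq on GRCm38.p6. Anxa2 lies on the plus strand at chr9:69453433-69453732, Lgals3bp on the minus strand at chr11:118401910-118402209, S100a6 on the plus strand at chr3:90612644-90612943, and Anxa11 on the plus strand at chr14:25841905-25842204. Capitals mark matches to the motifs searched and the base at the annotated start.
Anxa2: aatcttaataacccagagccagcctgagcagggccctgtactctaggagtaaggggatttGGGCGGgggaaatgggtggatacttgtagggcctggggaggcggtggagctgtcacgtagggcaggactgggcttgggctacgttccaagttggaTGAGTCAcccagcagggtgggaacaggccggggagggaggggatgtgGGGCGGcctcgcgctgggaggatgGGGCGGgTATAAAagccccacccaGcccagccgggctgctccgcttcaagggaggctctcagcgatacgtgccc
Lgals3bp: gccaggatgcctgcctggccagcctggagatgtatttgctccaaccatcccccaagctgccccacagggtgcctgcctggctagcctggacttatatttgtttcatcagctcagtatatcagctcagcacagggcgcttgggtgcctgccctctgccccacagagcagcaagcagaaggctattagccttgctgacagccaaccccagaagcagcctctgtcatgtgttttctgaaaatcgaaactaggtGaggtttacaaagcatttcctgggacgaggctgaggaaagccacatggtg
S100a6: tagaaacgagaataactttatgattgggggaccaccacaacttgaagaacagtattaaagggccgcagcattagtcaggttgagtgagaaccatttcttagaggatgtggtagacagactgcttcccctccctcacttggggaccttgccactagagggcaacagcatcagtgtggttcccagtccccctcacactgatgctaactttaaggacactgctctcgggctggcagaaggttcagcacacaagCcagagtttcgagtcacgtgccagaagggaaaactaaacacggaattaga
Anxa11: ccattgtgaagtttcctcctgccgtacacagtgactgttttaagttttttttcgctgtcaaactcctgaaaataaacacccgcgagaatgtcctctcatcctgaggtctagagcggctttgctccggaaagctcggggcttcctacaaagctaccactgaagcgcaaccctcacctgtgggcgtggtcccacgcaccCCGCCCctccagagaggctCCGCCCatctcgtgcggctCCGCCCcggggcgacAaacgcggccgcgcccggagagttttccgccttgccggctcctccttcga

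The motifs were searched on both strands and their matches do not overlap in these windows. They were the AP-1 site TGANTCA, found in 7.81% of 32851 promoters of the same length, the GC box GGGCGG (35.7%), TATAAA (13.6%), the forkhead site TGTTTAC (3.65%), the STAT site TTCNNNGAA (8.30%), and an interferon response core GAAANNGAA (8.56%). The Anxa2 window held an AP-1 match 95 to 89 bases before the start, a TATAAA match 17 to 12 bases before it, and 3 GC boxes. The Anxa11 window held 3 GC boxes on the minus strand, at 53 to 48, 34 to 29 and 15 to 10 bases before the start. No exact match to these letters lay in the Lgals3bp or S100a6 window. Near matches were not searched, so this does not show that such sites are absent. A match is a string of letters, and binding was not measured.

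Among the other S100 genes no call was made. Of the 17, 9 were tested, 1 was lower and 8 were not called, with a median log2 fold change of -0.0752. S100a11, the partner of annexin A1, stood at 199, 205 and 187 CPM in reporter-null libraries and at 215 and 162 CPM in Treg libraries (log2 fold change 0.07, SE 0.146, adjusted p = 0.846). S100a4, a motility-associated S100 protein of memory and effector T cells, stood at 67.1, 37.1 and 52.6 CPM in reporter-null libraries and at 66.6 and 63.6 CPM in Treg libraries (-0.32, SE 0.239, adjusted p = 0.515). Both genes overlapped between the groups. S100a13, which takes part in export of proteins that lack a signal peptide, stood at 54.6, 43.0 and 59.8 CPM in reporter-null libraries and at 56.8 and 50.6 CPM in Treg libraries (-0.03, adjusted p = 0.941). S100a3 was low everywhere, at 0.271, 0.192 and 0.178 CPM in reporter-null libraries and at 0.814 and 1.20 CPM in Treg libraries. The groups of S100a3 did not overlap, and its log2 fold change of -2.21 (SE 0.749, adjusted p = 0.133) was not called. The exons of S100a4 share 302 bases with Gm42674, and those of S100a3 share 144, on the same strand. A strand setting could not tell reads of these bases apart, and Gm42674 has no row of its own.

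The S100 genes lie close together in the genome, 14 of 17 on chromosome 3. There S100a6, which was called, is separated from S100a4, which was not, by S100a5 alone. S100a16, S100a1 and S100g were below 20 CPM in every library. S100a16 stood at 0.0542, 17.9 and 0.0890 CPM in reporter-null replicates 1, 2 and 3, and at 2.44 and 0.139 CPM in Treg replicates 1 and 2. It was highest in the libraries that were highest in epithelial markers, and its log2 fold change of 2.22 had an SE of 3.04 (adjusted p = 0.756). Without reporter-null replicate 2 it was below the filter on low counts and has no value. S100a1 stood at 3.09, 8.30 and 3.60 CPM in reporter-null libraries and at 3.58 and 4.25 CPM in Treg libraries (0.35, adjusted p = 0.758). S100g, an intestinal calcium carrier, stood between 0 and 0.816 CPM (-0.08, adjusted p = 0.988).

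Annexins had the largest summed CPM of the families, at 1931, 1749 and 1610 CPM in reporter-null libraries and 1250 and 1403 CPM in Treg libraries. CPM is not divided by gene length, so these sums do not rank the families by number of transcripts. For example, Anxa6 has 2930 exon bases and S100a11 has 511. Of 12 annexins 9 were tested, 1 was higher, 1 was lower and 7 were not called, with a median log2 fold change of 0.263. Anxa6, a membrane scaffold, stood at 1071, 861 and 879 CPM in reporter-null libraries and at 668 and 783 CPM in Treg libraries. Its groups did not overlap, and the log2 fold change of 0.37 (SE 0.152, adjusted p = 0.212) was not called. Anxa5, whose product binds exposed phosphatidylserine, stood at 180.5, 147 and 157 CPM in reporter-null libraries and at 131 and 142 CPM in Treg libraries (0.24, SE 0.129, adjusted p = 0.334). Anxa7 stood at 102, 98.1 and 97.1 CPM in reporter-null libraries and at 82.4 and 82.9 CPM in Treg libraries (0.26, SE 0.103, adjusted p = 0.192). For both, every reporter-null library was above every Treg library by a margin the test did not call.

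Anxa4, Anxa1 and Anxa3 depended on single libraries. Anxa4, an annexin of secretory epithelia, stood at 45.5, 81.9 and 45.1 CPM in reporter-null libraries and at 41.3 and 44.8 CPM in Treg libraries (0.42, adjusted p = 0.485). Without reporter-null replicate 2 the log2 fold change of Anxa4 was 0.064, and without that library and Treg replicate 1 it was 0.022. Anxa1, the anti-inflammatory ligand of formyl peptide receptors, stood at 5.90, 26.9 and 6.32 CPM in reporter-null libraries and at 20.1 and 14.6 CPM in Treg libraries. With all libraries its log2 fold change was -0.41 (SE 0.800, adjusted p = 0.831). Without reporter-null replicate 2 it was -1.51 (adjusted p = 0.00236). Without that library and Treg replicate 1 it was -1.25, with 1 Treg library left. Anxa3 stood at 0.379, 8.98 and 0.667 CPM in reporter-null libraries and at 2.28 and 0.370 CPM in Treg libraries (1.34, SE 1.68, adjusted p = 0.726), and turned to -1.32 without reporter-null replicate 2 and to 0.51 without both. Anxa9 stood between 1.80 and 2.16 CPM in every library (0.11, adjusted p = 0.927). On the same strand, exons of Anxa3 share 112 bases with Gm42603, and those of Anxa9 share 94 with 6330562C20Rik.

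Galectins had the highest median log2 fold change of the 3 families, 1.02, yet edgeR called 0 of the 6 tested. That median lies midway between Lgals1 (0.46) and Lgals4 (1.58), and Lgals4 turned to -0.59 without reporter-null replicate 2. At an unadjusted p under 0.05 there were 2, DESeq2 called 1 (Lgals7), limma-voom 0, and limma-voom with sample quality weights 2 (Lgals1 and Lgals3). Lgals1, which crosslinks glycoproteins on activated T cells, stood at 515, 354 and 475 CPM in reporter-null libraries and at 322 and 328 CPM in Treg libraries. All reporter-null libraries were above both Treg libraries, and the log2 fold change was 0.46 (SE 0.174, adjusted p = 0.173). Without reporter-null replicate 2 it was 0.60 (adjusted p = 0.0129). Lgals9, which binds TIM-3, stood at 235, 205 and 222 CPM in reporter-null libraries and at 224 and 226 CPM in Treg libraries (-0.03, SE 0.111, adjusted p = 0.920). Lgals8 stood at 52.0, 56.8 and 47.3 CPM in reporter-null libraries and at 61.4 and 67.0 CPM in Treg libraries (-0.30, SE 0.125, adjusted p = 0.215). Its exons share 155 bases with Heatr1 on the other strand, and the strand setting of the counting is not given in the sources used here.

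Among the tested galectins, Lgals3, Lgals4 and Lgals7 had the widest spread within each group. Lgals3 stood at 142, 368 and 86.1 CPM in reporter-null replicates 1, 2 and 3, and at 60.4 and 22.8 CPM in Treg replicates 1 and 2. All reporter-null libraries were above both Treg libraries, with the highest value of each group in its library rich in epithelial RNA, and the log2 fold change of 2.26 (SE 0.933, adjusted p = 0.284) was not called. Without those 2 libraries it was 2.33, a value that rests on 2 reporter-null libraries and 1 Treg library. Lgals4 stood at 17.7, 196 and 16.8 CPM in reporter-null libraries and at 42.8 and 8.79 CPM in Treg libraries (1.58, SE 1.73, adjusted p = 0.694). Its direction turned without reporter-null replicate 2 (-0.59, adjusted p = 0.799). Without both libraries its log2 fold change was 0.98, again with 1 Treg library. Lgals7, a keratinocyte galectin that lies next to Lgals4 on chromosome 7, had another pattern, with 19.0, 5.09 and 29.1 CPM in reporter-null libraries and 1.74 and 5.55 CPM in Treg libraries. It was lowest in the library of each group that was richest in epithelial RNA (2.28, SE 0.972, adjusted p = 0.275), and without reporter-null replicate 2 it was called (2.70, adjusted p = 0.0305).

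**Figure D3:**
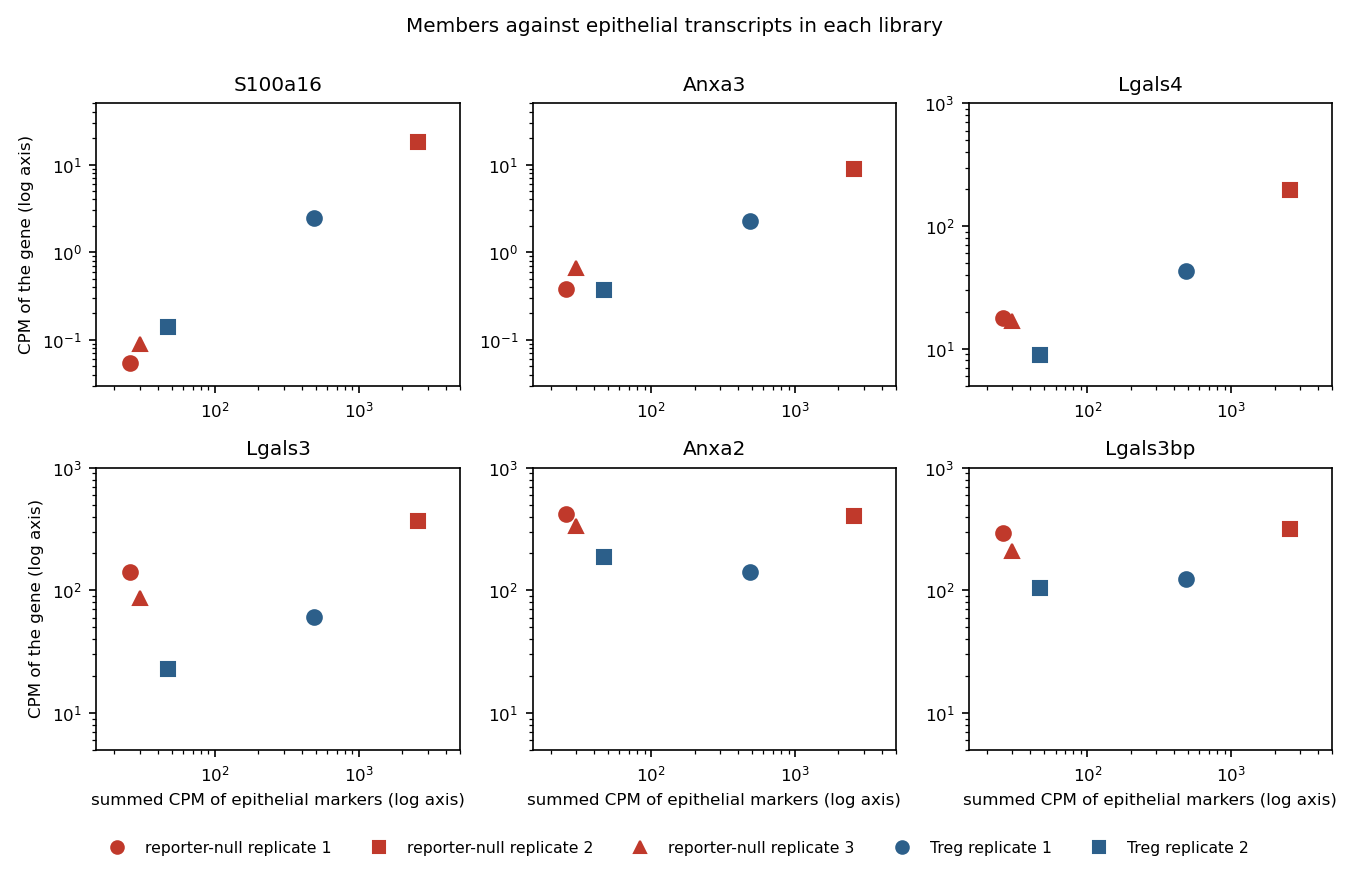
Level of 6 members (y axis, CPM, log axis) against the summed CPM of 32 epithelial markers (x axis, log axis), 1 point per library. S100a16, Anxa3 and Lgals4 are highest in reporter-null replicate 2, which has the highest marker sum, while Anxa2 lies between 333 and 421 CPM in reporter-null libraries whose marker sums run from 25.8 to 2570 CPM.

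Per 100 CPM of the epithelial markers without Epcam, Lgals4 stood at 71.5, 7.99 and 57.8 CPM in reporter-null libraries and at 9.68 and 70.4 CPM in Treg libraries. Lgals3 stood at 574, 15 and 296 CPM per 100 in reporter-null libraries and at 13.7 and 183 CPM per 100 in Treg libraries. Both ratios were lowest in the libraries richest in epithelial RNA. S100a16 kept within a narrower range, at 0.219, 0.730 and 0.306 CPM per 100 in reporter-null libraries and at 0.553 and 1.11 CPM per 100 in Treg libraries. These ratios rest on 1, 373 and 2 counts of S100a16 in reporter-null libraries and on 45 and 3 in Treg libraries. Counts this low leave the ratio imprecise in reporter-null replicates 1 and 3 and in Treg replicate 2. In the edgeR test without a replicate block 0 of the 27 tested epithelial markers were called, 0 had an unadjusted p under 0.05, and their median log2 fold change was 1.80. DESeq2 and limma-voom called 0 and limma-voom with sample quality weights 1. Among the 32 markers, 14, 0 and 9 were at 0 in reporter-null libraries and 1 and 12 in Treg libraries. Markers of macrophages followed the same libraries, with sums of 44.7, 235 and 39.8 CPM in reporter-null libraries and 125 and 28.7 CPM in Treg libraries, as did fibroblast markers, with 27.2, 136 and 20.02 CPM in reporter-null libraries and 54.8 and 15.6 CPM in Treg libraries. B and plasma cell markers, 93.4% of them Jchain, were also highest there, with 386 and 437 CPM in reporter-null replicates 1 and 3 and 866.5 CPM in replicate 2, and with 1430 and 424 CPM in Treg replicates 1 and 2. The part of epithelial, macrophage, fibroblast, B cell or plasma cell RNA in the values of these members was not tested.

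**Figure D4:**
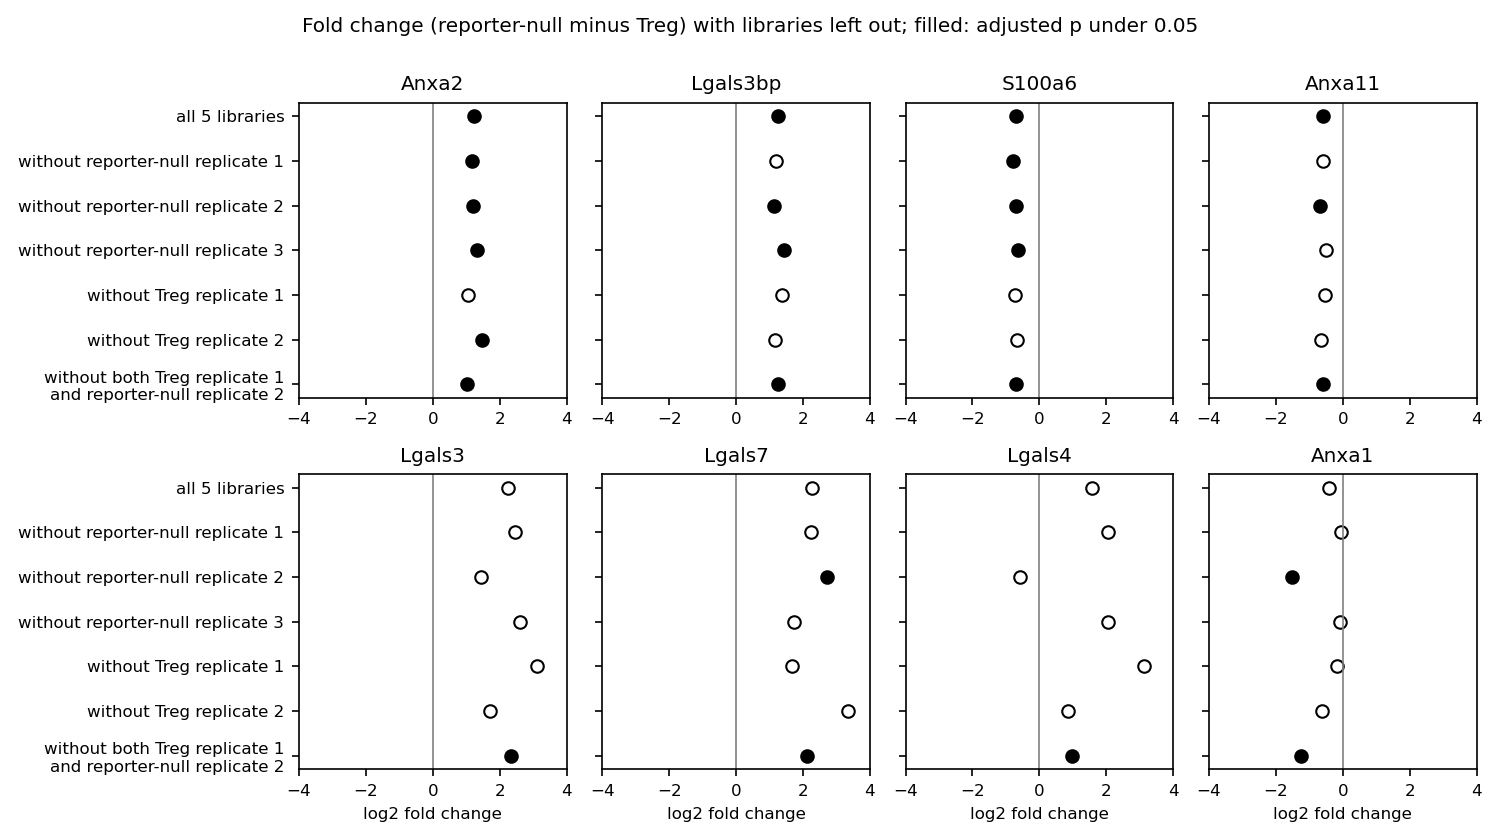
Log2 fold change (x axis, reporter-null minus Treg) of 8 members with all 5 libraries and with libraries left out (y axis); filled points have an adjusted p under 0.05. Anxa2 keeps between 1.02 and 1.46 in every row, while Lgals4 turns to -0.59 without reporter-null replicate 2 and Anxa1 moves to -1.51. Rows that leave out a Treg replicate rest on the lone other Treg library, so Treg variation is not estimated in them.

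The remaining 13 members had summed counts of 1 to 68 over the 5 libraries and were not tested. S100a14, an epithelial S100 protein, had 61 counts in reporter-null libraries and 7 in Treg libraries, a ratio of 5.65 (95% exact counting interval 2.58 to 14.6). Lgals2 had 28 counts in reporter-null libraries and 2 in Treg libraries (9.08, 2.29 to 78.6), and Lgals12 had 40 in reporter-null libraries and 3 in Treg libraries (8.64, 2.75 to 43.7). These ratios rest on reporter-null replicate 2, which held 55 of the S100a14 counts, all 28 of Lgals2 and 34 of Lgals12. Without it the sums in reporter-null and Treg libraries were 6 and 7 for S100a14, 0 and 2 for Lgals2, and 6 and 3 for Lgals12, so no direction is read for these genes. Anxa8 had 14 counts in reporter-null replicate 2 and 0 in every other library. Pooled by group this is at least 3.03-fold higher in reporter-null cells, taking 3 counts as the limit for the Treg libraries together. Without that replicate both groups were at 0, so no direction is read for Anxa8. Anxa13 had 14 counts in reporter-null libraries and 4 in Treg libraries (2.27, 0.713 to 9.47), 12 of the reporter-null counts again in replicate 2, and Anxa10 had 2 in reporter-null libraries and 10 in Treg libraries (0.130, 0.0138 to 0.608). The neutrophil pair was nearly absent, with 2 counts of S100a8 in each group, and 1 count of S100a9 in reporter-null libraries against 8 in Treg libraries, all in Treg replicate 1. S100b, S100a5, S100z, S100a2 and S100a7a had at most 21 counts in a group. These intervals and limits cover counting error only.

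With CPM divided by the exon length in kilobases, Lgals1 was first in reporter-null cells at 496 CPM per kb (360 in Treg cells), followed by S100a11 at 386 (369 in Treg cells), Anxa6 at 320 (248 in Treg cells) and S100a10 at 290 (345 in Treg cells). The same 4 genes led in Treg cells. S100a6 ranked 11 in reporter-null cells and 5 in Treg cells, and Anxa2 ranked 6 in reporter-null cells and 10 in Treg cells. No test was made of these ranks.

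Among 24 companion cytoskeletal and membrane genes, 4 were higher, 2 were lower and 18 were not called, against 4.07% higher and 4.72% lower over all genes, and their median log2 fold change was 0.12. Ahnak, the giant scaffold that binds annexin A2 with S100A10, stood at 867, 962 and 788 CPM in reporter-null libraries and at 417 and 561.5 CPM in Treg libraries (0.83, SE 0.171, adjusted p = 0.0306). Cd44, the hyaluronan receptor, was higher (0.65, adjusted p = 0.0345), and Actn1, an actin crosslinker, was lower (-1.19, adjusted p = 0.0193). Without reporter-null replicate 1 or Treg replicate 2 the list had 0 calls, and leaving out Treg replicate 1 gave 1, while leaving out reporter-null replicate 3 gave 2 higher and 1 lower.

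Among 21 calcium sensors and calpains, 3 were lower and 18 were not called, against 4.72% lower over all genes, with a median of -0.105. The lower genes were Camk2d (-1.46, adjusted p = 0.000991) and Camk4 (-1.13, adjusted p = 0.00429), both calcium and calmodulin dependent kinases, and Stim2 (-0.87, adjusted p = 0.00646), a calcium sensor of the endoplasmic reticulum. Without Treg replicate 1 the list had 1 lower gene and without Treg replicate 2 it had 2, while DESeq2 called 6 lower and 1 higher. Of 11 tested receptors and targets of annexins and S100 proteins, edgeR called 0, with 4 at an unadjusted p under 0.05. DESeq2 called 4, limma-voom 0 and limma-voom with sample quality weights 2.

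Galectin counter-receptors are glycoproteins that galectins bind on T cells and other cells. Of 18 tested, 2 were higher, 6 were lower and 10 were not called, against 8.79% called over all genes, with a median of -0.186. Leaving out reporter-null replicate 1 gave 0 higher and 3 lower, leaving out Treg replicate 1 gave 0 and 2, and leaving out Treg replicate 2 gave 1 and 2. Tnfrsf9, a costimulatory receptor that binds galectin-9, stood at 106.7, 107 and 106 CPM in reporter-null libraries and at 1144 and 1165 CPM in Treg libraries (-3.44, SE 0.108, adjusted p = 5.31e-05). Cd7, a galectin-1 receptor, stood at 1.68, 1.82 and 0.490 CPM in reporter-null libraries and at 30.8 and 23.0 CPM in Treg libraries (-4.34, SE 0.549, adjusted p = 0.00818). Lamp1, a lysosomal glycoprotein, was lower (-1.08, adjusted p = 0.00200), and Spn, which encodes CD43, was higher (0.93, adjusted p = 0.0117). Of 15 enzymes that build galectin ligands, B3gnt2, which extends lactosamine chains, was lower (-0.51, adjusted p = 0.0328) and 14 were not called, against 8.79% called over all genes. This list had 0 calls without reporter-null replicate 1, Treg replicate 1 or Treg replicate 2, and 3 higher and 3 lower with DESeq2.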

How the data were processed

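The authors deposited a single table of raw counts by gene symbol, which its header and values show as not normalised. Per the labels' protocols, TRIzol RNA was amplified with SMART-Seq v4, made into libraries with KAPA Hyper Prep and sequenced in pairs on an Illumina HiSeq. The submitters' processing notes name DESeq without a version or role. Aligner, build, annotation and strand setting: not given in the sources used here. Reads carry no molecular identifiers, so counts are reads, and reads of overlapping genes may not be told apart.

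Groups came from the titles. The 4 rows named NA (0.0034% to 0.00492% of counts) were left out. In R 4.3.3, genes passing filterByExpr (minimum count 10, minimum total 15) were scaled with TMM and compared with the robust quasi-likelihood F test of edgeR 4.0.16, with Benjamini-Hochberg adjustment over 14164 genes and a threshold of 0.05. The SE is the fold change divided by the square root of F. No replicate pair agreed within sampling noise (chi-square 21.3 to 91.2 per degree of freedom), and the common biological coefficient of variation was 0.401. Alternatives used DESeq2 1.42.0 and limma 3.58.1. The steps were tested on simulated data. There, 36%, 56%, 72% and 72% of 50 genes planted at log2 fold changes of 1, 2, 3 and 4 were recovered. Of the 129 calls, 11 were false. A gene that was not called may therefore still differ between the groups. Exon lengths came from GENCODE M21 and promoters from RefSeq (31 of 39 members matched). Protein sequences were planned but are not analysed here.

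Named members were those called, those with a mean of at least 50 CPM in a group, and those above 1 CPM in a library with overlapping groups, and up to 4 called genes per context list. Members, lists, motifs and this rule were chosen with earlier results of these data known.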

Additional observations from a re-analysis of the deposited data

How the results depend on the processing

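Of 410 values of single members under alternatives, 353 kept direction and side of the threshold, 28 reversed, 15 lost and 14 gained a call. Anxa2, Lgals3bp, S100a6 and Anxa11 kept their direction in all 16 alternatives run for each. The groups did not overlap for these genes, so leaving out libraries could hardly turn their direction. All of the lost calls were theirs. Higher members (2 with all libraries) numbered 4 with DESeq2, 4 with limma-voom and sample quality weights, 5 with reporter-null replicate 2 and Treg replicate 1 both left out, and 1 at an adjusted p under 0.01, and 0 to 4 with 1 library left out. Lower members (2) numbered 1 with RLE factors and 0 at an adjusted p under 0.01, and 0 to 3 with 1 library left out. Higher genes over the table (577) numbered 1200 with DESeq2, 995 with the weights, 944 without both libraries and 208 at 0.01, and 146 to 926 with 1 library left out. Lower genes (668) numbered 1123 with DESeq2, 1163 with the weights, 1208 without both libraries and 281 at 0.01, and 192 to 1109 with 1 library left out. Fits that leave out a Treg library hold 1 Treg library, so they do not estimate how Treg libraries vary. The cause of these differences was not tested.

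Replicate numbers in the titles and in the descriptions give different pairs, and the labels do not say that a number marks an animal. By the descriptions, the libraries rich in epithelial RNA, reporter-null replicate 2 and Treg replicate 1, share the number 2. Deviations of same-numbered libraries correlated at -0.511 and -0.602 by the titles and at 0.602 and 0.481 by the descriptions. The Treg group has 2 libraries, so their deviations from the group mean are equal and opposite. The values -0.602 and 0.602 are therefore the same comparison of reporter-null replicate 2 with its sign turned. Opposite signs for the titles and the descriptions are thus partly fixed by the design. With the title numbers as a replicate block, 0 members were called higher and 0 lower, and 12 genes higher and 12 lower over the table. In the lists, 1 galectin counter-receptor was called lower and 0 companion genes, calcium sensors or glycan enzymes. With the description numbers as a block, 5 members were called higher, Lgals3 (2.27, adjusted p = 1.64e-06), Lgals4 (1.60, 0.0122) and Lgals7 (2.01, 0.000759) beside Anxa2 and Lgals3bp. In that fit 17 epithelial and 3 macrophage markers were also called higher and 0 lower.

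Reversed log2 fold changes belong to members not called. With 1 library left out, log2 fold changes ran from -1.32 to 3.15 for Anxa3, -0.59 to 3.13 for Lgals4, -0.075 to 0.013 for Lgals9, -0.24 to 0.60 for S100a1, -0.12 to 0.29 for S100a11, -0.14 to 0.082 for S100a13, -1.08 to 6.01 for S100g and -0.26 to 0.21 for S100pbp. With both libraries left out they were 0.020 for Lgals9, -0.34 for S100a1, 0.18 for S100a13 and 0.29 for S100pbp. With limma-voom and weights they were -0.42 for Anxa3, 0.026 for Lgals9, -0.12 for S100a1, 0.0053 for S100a13, -1.73 for S100a16 and 0.094 for S100g, and with limma-voom -0.045 for S100a16 and 1.15 for S100g. S100g was 0.54 with the title block and 1.14 with the description block, where S100pbp was 0.031. The epithelial sum without Epcam and the counts of untested members without reporter-null replicate 2 were added after seeing the data. Low counts limit S100a3, S100a16, S100g and the untested members.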
